A study of Homo sapiens with 8 samples.

Results

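Aminoacyl-tRNA synthetases are the enzymes that load each transfer RNA with its amino acid. The list read here holds 35 of their genes, 19 for cytosolic enzymes and 16 for mitochondrial enzymes. Its members were listed by name, but the list was chosen with earlier results of these data known. On the arrays, 32 of the 35 had a probe set annotated to that gene alone, 17 cytosolic and 15 mitochondrial. The probe sets of MARS1, QARS1 and TARS2 were each annotated to a second symbol, a microRNA, so no value is given for these 3. A probe set counted as expressed when it reached a log2 value of 6 on at least 1 array, which left all 17 cytosolic and 14 mitochondrial members. The exception was PARS2, the mitochondrial prolyl enzyme. These 31 genes stand beside 8429 expressed genes in the whole data set.

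The cells were HT1080, a human fibrosarcoma line, kept in medium with 2 mg/mL glucose. Of the 8 arrays, 1 held RNA from untreated control cells, and 1 each held RNA from cells given 10 µM compound C, 10 µM versipelostatin or 100 µM phenformin. The other 4 held RNA from cells given 10 mM 2-deoxy-D-glucose (2DG), alone or together with each of these compounds at the same dose. All cultures were harvested at 18 h. 2DG is a glucose analog that blocks glycolysis and disturbs protein glycosylation, and it was used here as a form of glucose deprivation that stresses the endoplasmic reticulum. Compound C, also called dorsomorphin, inhibits the kinase AMPK and BMP receptors. Versipelostatin is a macrocyclic natural product, and phenformin is a biguanide that inhibits mitochondrial respiration. According to the methods, compound C and versipelostatin were dissolved in DMSO and phenformin and 2DG in water, and the labels do not say whether control cells received DMSO.

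There was 1 array per condition. No single comparison therefore has a replicate error, and each difference compares 2 arrays. The average effect of 2DG over 4 pairs of arrays is the one quantity that was tested. A member was called higher or lower at a 2-fold difference, which is 1 on the log2 scale, and each such count is given beside the share of the 8429 expressed genes past the same limit. In cultured cells read in bulk, less RNA per cell and fewer cells with that RNA cannot be told apart.

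Cytosolic synthetases charge the transfer RNAs read by cytosolic ribosomes. Mitochondria use a second set of enzymes, also coded in the nucleus and imported, while GARS1 and KARS1 each code for the enzyme of both compartments. The enzymes fall into 2 structural classes, and several cytosolic ones (here EPRS1, IARS1, KARS1, LARS1 and RARS1) sit in a multisynthetase complex. When the initiation factor eIF2alpha is phosphorylated, in endoplasmic reticulum stress or amino acid shortage, the transcription factor ATF4 is made, and many cytosolic synthetase genes are known among its targets. ATF4 acts through an amino acid response element, also named CARE, whose core was searched here as TGATGNAA, or TTNCATCA when read on the opposite strand (N, any base).

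The core was searched in RefSeq promoter windows of 300 bases on GRCh38.p14, 250 before and 50 after the gene start. It occurred in 1270 of 35116 windows (3.62%), and 207 of the 7077 expressed genes with a window held it (2.92%). Of the 17 expressed cytosolic members 14 had a window, and 6 of these held the core, AARS1, CARS1, GARS1, IARS1, NARS1 and TARS1. Among the mitochondrial members 12 had a window and 1 held it, YARS2. The table used had no window for LARS1, VARS1, YARS1, AARS2 and VARS2. The matches follow with 11 bases on each side, in the direction of transcription and with the core in capitals. ASNS (asparagine synthetase) and CHAC1 (a glutathione-degrading enzyme), known targets of ATF4, are added for reference.
AARS1, chr16:70289675-70289704, minus strand: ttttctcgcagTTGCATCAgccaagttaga
CARS1, chr11:3057407-3057436, minus strand: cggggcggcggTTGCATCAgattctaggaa
GARS1, chr7:30594834-30594863, plus strand: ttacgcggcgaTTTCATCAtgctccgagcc
IARS1, chr9:92293692-92293721, minus strand: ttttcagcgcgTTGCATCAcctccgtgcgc
NARS1, chr18:57621804-57621833, minus strand: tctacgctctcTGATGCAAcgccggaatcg
TARS1, chr5:33440956-33440985, plus strand: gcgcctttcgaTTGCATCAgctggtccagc
YARS2, chr12:32756076-32756105, minus strand: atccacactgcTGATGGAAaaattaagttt
ASNS, chr7:97872458-97872487, minus strand: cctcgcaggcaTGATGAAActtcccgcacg
CHAC1, chr15:40953251-40953280, plus strand: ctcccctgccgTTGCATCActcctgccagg

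The letters TTGCATCA were the same in AARS1, CARS1, IARS1, TARS1 and CHAC1, and NARS1 held their reverse complement. The first base of the core lay 2 bases before the gene start in CARS1, 13 before it in IARS1, 33 before it in GARS1 and 187 before it in AARS1, and it was base 3 after the start in TARS1 and base 15 in NARS1. In YARS2 it lay 197 bases before the start. SARS1 and WARS1 held no match in either of their 2 windows. The 250 bases before the first listed start of the 3 members that were at least 2-fold higher in 2DG are given next, again with the core in capitals where present.
AARS1, chr16:70289507-70289756, minus strand: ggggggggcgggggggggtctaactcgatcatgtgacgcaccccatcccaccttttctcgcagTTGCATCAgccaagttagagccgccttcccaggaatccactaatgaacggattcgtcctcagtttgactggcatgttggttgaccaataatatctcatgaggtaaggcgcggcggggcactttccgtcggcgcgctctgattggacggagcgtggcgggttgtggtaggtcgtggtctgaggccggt
SARS1, chr1:109213643-109213892, plus strand: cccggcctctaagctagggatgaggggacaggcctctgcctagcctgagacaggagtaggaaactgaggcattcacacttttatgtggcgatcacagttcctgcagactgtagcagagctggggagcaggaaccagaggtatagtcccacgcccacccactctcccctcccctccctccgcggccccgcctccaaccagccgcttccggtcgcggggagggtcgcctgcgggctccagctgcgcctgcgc
WARS1, chr14:100376328-100376577, minus strand: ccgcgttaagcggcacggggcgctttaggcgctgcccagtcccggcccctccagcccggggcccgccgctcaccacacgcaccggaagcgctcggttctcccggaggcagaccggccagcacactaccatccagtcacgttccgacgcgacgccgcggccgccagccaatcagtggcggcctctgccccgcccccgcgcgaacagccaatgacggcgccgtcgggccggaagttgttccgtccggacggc

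A match to the core is a description of the letters and not a mapped binding site. SARS1 and WARS1 were the members with the greatest differences in 2DG, so the letters did not sort the cytosolic members by themselves. Among the 14 with a window, the 6 with a match had a median difference of 0.62 (log2) in 2DG against control, with a range of 0.16 to 1.04. The 8 without a match had a median of -0.02 and a wider range, -0.48 to 1.58. The corresponding medians with versipelostatin alone were 0.73 and 0.04, with compound C alone 0.56 and 0.01, and with phenformin alone 0.20 and -0.25. Over all 207 expressed genes with a match the median in 2DG was 0.10, against 0.01 for the 6870 without.

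Properties of the arrays also bear on the values. The medians over all probe sets lay between 3.117 and 3.278 (log2) on the 8 arrays, but the median over expressed probe sets ran from 7.01 to 7.35 and was lowest on the 3 arrays of 2DG with a compound. On these same 3 arrays the poly-A control transcripts read 1.22, 0.85 and 0.67 above the control array, against 0.35 in 2DG alone and 0.05 to 0.28 with the single compounds. The part of this shift in the members' values was not tested, and values scaled to those controls are called the poly-A scale. On that scale 4 of 17 cytosolic members turned from above to below control in 2DG (IARS1, NARS1, TARS1 and VARS1) and 4 with phenformin alone (AARS1, IARS1, VARS1 and YARS1), none with versipelostatin alone, and HARS1 and RARS1 with compound C alone. The mesenchymal markers VIM, FN1, COL1A1 and SPARC were above the array median on all 8 arrays, and the epithelial markers EPCAM, CDH1 and KRT20 on none, while KRT5 was above it on 3.

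In 2DG alone, 3 of 17 cytosolic members were at least 2-fold higher than in control and 0 were lower, where 3.06% of all expressed genes were higher and 1.90% lower. None of the 14 mitochondrial members reached 2-fold in either direction. The cytosolic median was 0.31 (log2) and the mitochondrial median -0.04, and the median of all expressed genes was 0.01. On the poly-A scale the cytosolic median turned to -0.04, but all expressed genes then had a median of -0.34, so that the cytosolic members stood 0.30 above all genes under either scaling. Of 14 pairs of a cytosolic member and its mitochondrial counterpart, the cytosolic one had the higher difference in 11.

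**Figure D1:**
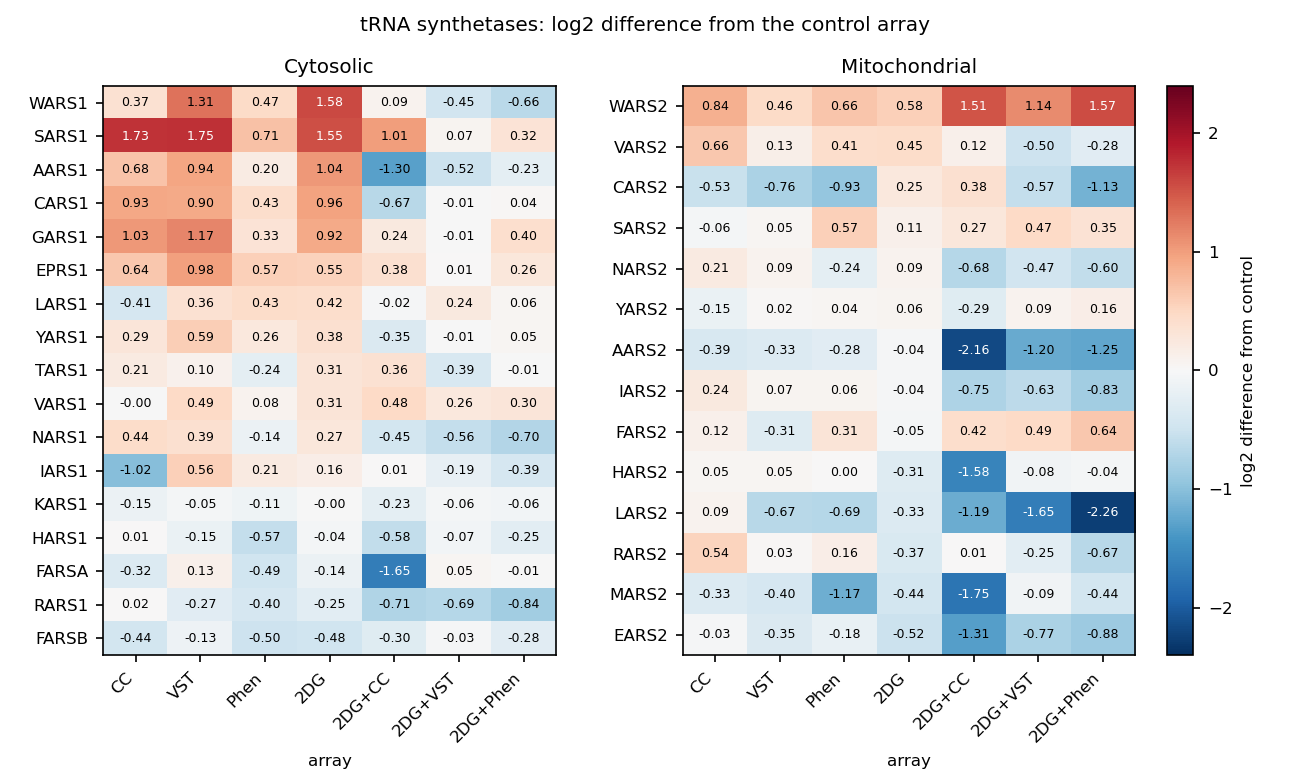
Log2 difference of each expressed member from the control array, with 17 cytosolic members on the left and 14 mitochondrial members on the right, ordered by the value in 2DG. Columns are single arrays (CC, compound C; VST, versipelostatin; Phen, phenformin), and the numbers in the cells are the differences. At the top of the cytosolic panel WARS1, SARS1, AARS1, CARS1 and GARS1 were above control with each single treatment. They lay between -0.52 and 0.07 from control in 2DG plus versipelostatin, and between -0.66 and 0.40 in 2DG plus phenformin. The 0.40 was that of GARS1, which stood at 0.33 with phenformin alone. WARS2 was higher than control on every treated array.

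WARS1 codes for the cytosolic tryptophanyl enzyme, which is also known as a gene induced by interferon gamma. Its log2 level was 8.57 in control, 8.94 on the compound C array, 9.88 with versipelostatin and 9.04 on the phenformin array. In 2DG it was 10.15, its highest value and 2.99-fold above control. With 2DG together with compound C, versipelostatin or phenformin it was 8.66, 8.12 and 7.92, so that the last 2 arrays were the lowest of all 8. Its other expressed probe set gave a difference of 1.63 in 2DG, against 1.58 on the main one.

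SARS1, the cytosolic seryl enzyme, was at 9.51 in control, 11.25 on the compound C array, 11.26 with versipelostatin and 10.22 on the phenformin array. It was at 11.06 in 2DG, 10.52 in 2DG plus compound C, 9.58 in 2DG plus versipelostatin and 9.83 in 2DG plus phenformin. On this brighter of its 2 probe sets the control array was the lowest. The 3 arrays of 2DG, compound C and versipelostatin alone lay close together, between 11.06 and 11.26. SARS1 thus stood 2.92-fold above control in 2DG, 3.33-fold with compound C and 3.36-fold with versipelostatin.

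AARS1, the alanyl enzyme, was at 8.94 in control, 9.63 on the compound C array, 9.89 with versipelostatin and 9.14 on the phenformin array. In 2DG it was at 9.98, and in 2DG plus compound C, versipelostatin and phenformin at 7.64, 8.42 and 8.71. All 4 arrays with a single agent lay above control and all 3 with 2DG and a compound below it, but on the poly-A scale the phenformin array was at -0.08 from control. The difference of 1.04 in 2DG was just past the 2-fold limit and was 0.69 on that scale.

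GARS1, the glycyl enzyme of both compartments, is measured by a single expressed probe set. It was at 11.15 in control, 12.18 with compound C, 12.32 with versipelostatin, 11.47 with phenformin and 12.06 in 2DG. With 2DG and each of compound C, versipelostatin and phenformin it was at 11.39, 11.13 and 11.55, and the versipelostatin array was the lowest of the 8. CARS1, the cysteinyl enzyme, was 0.96 above control in 2DG, just under the limit. It is described here because of its values, and its levels were 10.19 in control, 11.12 with compound C, 11.09 with versipelostatin, 10.62 with phenformin and 11.15 in 2DG. In 2DG plus compound C it was at 9.52, below every other array, and with versipelostatin and phenformin at 10.18 and 10.23, within 0.04 of control.

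**Figure D2:**
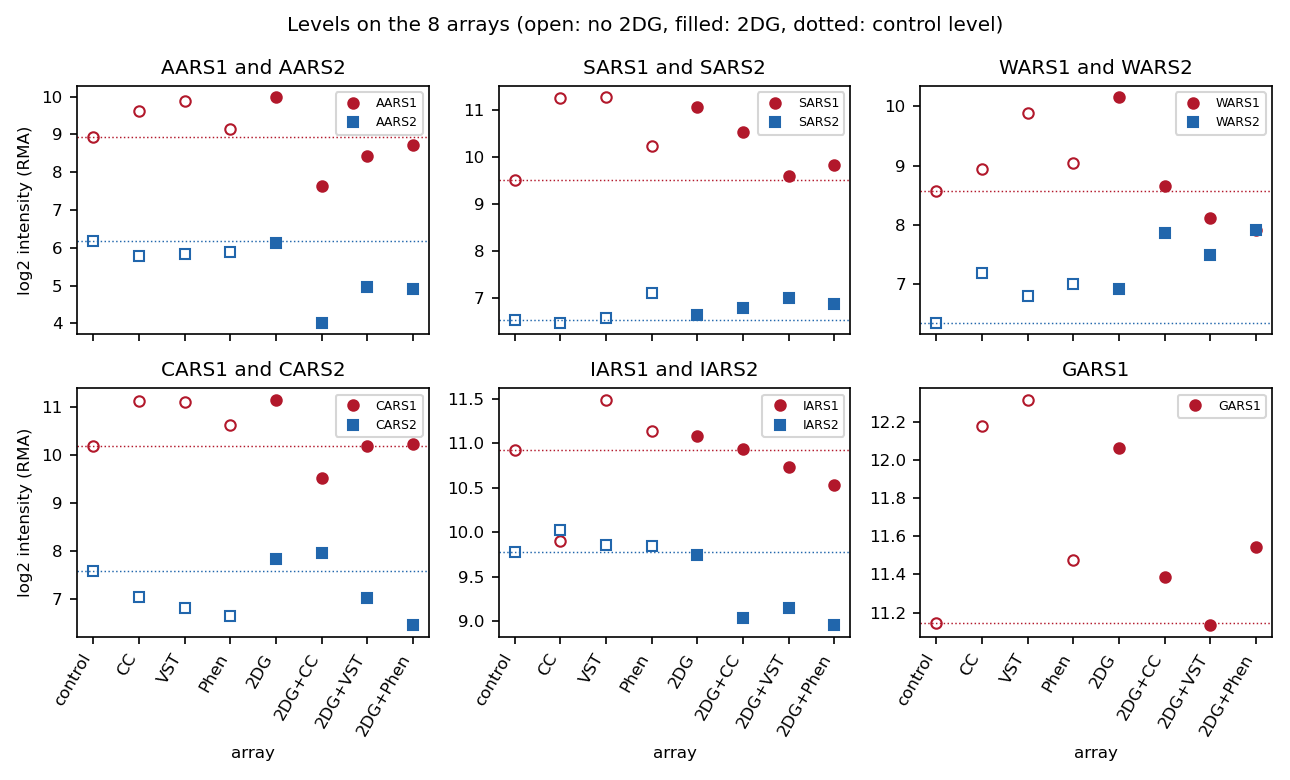
Log2 RMA intensity of 6 cytosolic members (circles) and the mitochondrial counterparts of 5 of them (squares) on the 8 arrays, open without 2DG and filled with 2DG, with dotted lines at the control level. Levels of different probe sets are not comparable with each other. WARS1 went from 8.57 in control to 10.15 in 2DG and 7.92 in 2DG plus phenformin, while WARS2 was lowest in control, at 6.34.

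Among the other cytosolic members, EPRS1 (glutamyl and prolyl), LARS1 (leucyl), YARS1 (tyrosyl), VARS1 (valyl), TARS1 (threonyl), NARS1 (asparaginyl) and IARS1 (isoleucyl) were between 0.16 and 0.55 above control in 2DG. Of these, IARS1 (-0.19), NARS1 (-0.08), TARS1 (-0.04) and VARS1 (-0.04) were below control on the poly-A scale. KARS1 (lysyl) and HARS1 (histidyl) gave -0.00 and -0.04. The lowest values were those of FARSA (-0.14), RARS1 (arginyl, -0.25) and FARSB (-0.48), FARSA and FARSB being the subunits of the phenylalanyl enzyme. The 5 members of the multisynthetase complex had a median of 0.16 and the other 12 a median of 0.35. Class I and class II cytosolic enzymes had medians of 0.38 and 0.27, EPRS1 being left out because it holds both. The level of KARS1 moved by only 0.23 over the 8 arrays, the smallest range of the 31 members, and AARS1 (2.34), LARS2 (2.35) and WARS1 (2.24) had the widest ones.

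Cytosolic members also differed from control with the single compounds in normal medium. With compound C alone, SARS1 (1.73) and GARS1 (1.03, but 0.93 on the poly-A scale) were at least 2-fold higher than control and IARS1 was lower (-1.02), where 3.88% of all expressed genes were higher and 2.70% lower. With versipelostatin alone, SARS1 (1.75), WARS1 (1.31) and GARS1 (1.17) were higher and none was lower, against 2.46% and 2.48% of all genes. EPRS1 followed with 0.98, AARS1 with 0.94 and CARS1 with 0.90. With phenformin alone no cytosolic member reached 2-fold, against 2.66% of all genes higher and 2.17% lower, and SARS1 was the highest with 0.71. The cytosolic medians were 0.21, 0.49 and 0.20 for compound C, versipelostatin and phenformin, and those of all genes 0.04, -0.02 and -0.03. On the poly-A scale the first 2 cytosolic medians were 0.11 and 0.44, while that with phenformin turned to -0.08, with all genes at -0.31. These comparisons and that of 2DG share 1 control array, so they are not independent of each other.

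IARS1 and LARS1, both of the multisynthetase complex, were lowest with compound C alone as deposited. IARS1 was at 10.92 in control, 9.90 with compound C, 11.49 with versipelostatin, 11.13 with phenformin and 11.08 in 2DG. The 3 combinations with 2DG, in the same order of compounds, gave 10.93, 10.73 and 10.53. With 2DG present, IARS1 differed from 2DG alone by only -0.15 when compound C was added. The level of LARS1 was 9.62 with compound C alone and 10.03 in control. LARS1 was 0.36, 0.43 and 0.42 above control with versipelostatin, phenformin and 2DG, and at -0.02 from control in 2DG plus compound C. On the poly-A scale IARS1 came to -0.07 from control with phenformin, -1.12 with compound C and -1.21 in 2DG plus compound C. LARS1 was then at -0.51 with compound C alone. In 2DG with compound C, versipelostatin and phenformin it was at -1.24, -0.61 and -0.61, so neither was lowest with compound C alone.

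**Figure D3:**
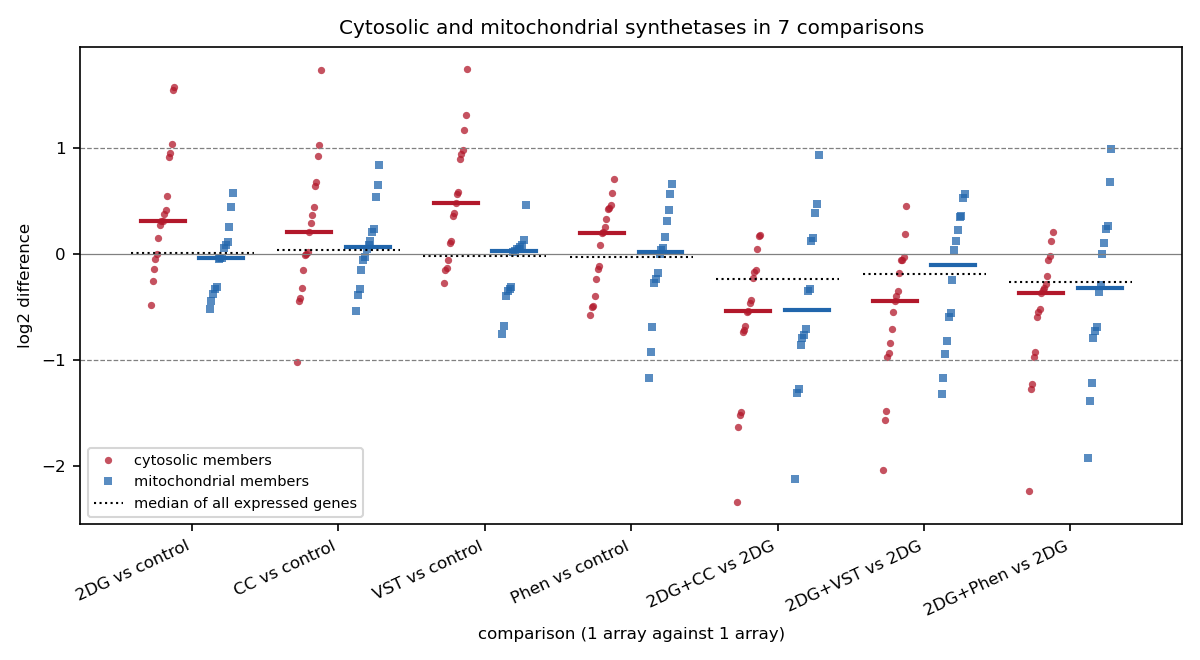
Log2 difference of each cytosolic member (circles) and mitochondrial member (squares) in 7 comparisons of 1 array with 1 other, with thick bars at the list medians, dotted lines at the median of all 8429 expressed genes and dashed lines at the 2-fold limit. Cytosolic medians were 0.31 in 2DG and 0.49 with versipelostatin alone, and between -0.54 and -0.36 when a compound was added to 2DG. Comparisons with the same reference array share its error.

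When a compound was added to 2DG, a large share of all genes was lower, and the members have to be read against it. With compound C in 2DG, 4 cytosolic members were lower than with 2DG only by 2-fold or more, AARS1 (-2.34), CARS1 (-1.63), FARSA (-1.51) and WARS1 (-1.49), and 0 were higher. Of all expressed genes 25.4% were lower and 8.33% higher, so that 4 of 17 was close to the share of all genes. With versipelostatin in 2DG, WARS1 (-2.03), AARS1 (-1.56) and SARS1 (-1.48) were lower and 0 higher, against 20.0% and 4.09%. With phenformin in 2DG, WARS1 (-2.24), AARS1 (-1.27) and SARS1 (-1.23) were lower and 0 higher, against 21.8% and 4.84%. After centring each array on its median over expressed probe sets, AARS1 and SARS1 came to -0.99 and -0.94 with phenformin, under the limit. The cytosolic medians were -0.54, -0.44 and -0.36, and those of all genes -0.23, -0.18 and -0.26. Among the cytosolic members FARSB was the highest with versipelostatin (0.45), phenformin (0.21) and compound C (0.19).

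FARSA parted from FARSB on 1 array. The level of FARSA was 7.10 in 2DG plus compound C and between 8.26 and 8.88 on the other 7 arrays, and its second probe set gave -1.65 in 2DG plus compound C against 2DG, beside -1.51 on the main one. FARSB stayed between 9.41 and 9.91 on all 8 arrays. Both are needed for the phenylalanyl enzyme, which works as a tetramer of these subunits. HARS2, the mitochondrial histidyl enzyme, was likewise low on that array alone, with 7.35 there and 8.62 to 8.98 elsewhere. The cytosolic HARS1 ranged from 9.69, also in 2DG plus compound C, to 10.28.

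Measured against control, 2DG plus versipelostatin left 12 of 17 cytosolic members within 1.2-fold, or 70.6%, where 35.6% of all genes were. At the 2-fold limit 0 were higher or lower, where 2.94% of all genes were higher and 16.7% lower. Scaled to the poly-A controls, 6 of 17 were lower, where 4083 of the 8429 expressed genes were. SARS1 differed from control by 0.07 there, GARS1 and CARS1 by -0.01 each and EPRS1 by 0.01. 2DG plus phenformin left 8 of 17 within 1.2-fold, or 47.1%, against 31.5% of all genes. There, 0 were past 2-fold, against 5.04% and 19.1% of all genes. With that scaling 4 of 17 were lower, where 3760 of the 8429 expressed genes were. In 2DG plus compound C, SARS1 was higher than control (1.01) and FARSA (-1.65) and AARS1 (-1.30) were lower, against 8.14% and 24.2%. On the poly-A scale SARS1 came to -0.21 there. The cytosolic medians were -0.03, -0.01 and -0.23 for versipelostatin, phenformin and compound C, with all genes at -0.13, -0.23 and -0.17. They turn further down, to -0.88, -0.68 and -1.45 on the poly-A scale, with all genes then at -0.98, -0.90 and -1.39.

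The arrays allow 2DG to be compared with its matching array without 2DG in 4 pairs that share no array. In the pair without a compound the 3 named members were higher, as given above. Under versipelostatin WARS1 (-1.76), SARS1 (-1.68), AARS1 (-1.47) and GARS1 (-1.19) were at least 2-fold lower with 2DG and 0 higher, against 16.6% lower and 3.74% higher of all genes. Under compound C, AARS1 (-1.98), CARS1 (-1.60) and FARSA (-1.33) were lower and IARS1 (1.03) was higher, against 26.4% and 8.67%. On the poly-A scale IARS1 turned to -0.09 in this pair. Under phenformin only WARS1 (-1.12) passed the limit, and it was lower, against 18.9% lower and 5.59% higher. Counting direction alone, 7 of 17 cytosolic members were higher with 2DG in the pair without a compound and lower with 2DG under each of the 3 compounds, AARS1, CARS1, EPRS1, NARS1, SARS1, WARS1 and YARS1. This was 41.2% of them, and 20.7% of all expressed genes did the same. The count was 6 when each array was centred on its median over expressed probe sets, 7 after quantile normalization and 8 on the poly-A scale, with all genes at 14.1%, 16.6% and 16.5%. RARS1 was lower with 2DG in all 4 pairs under each of these scalings, with values of -0.25, -0.73, -0.42 and -0.44 as deposited.

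The average effect of 2DG over these 4 pairs was tested with limma, in a model with a term for each compound and 1 for 2DG, on all 8429 expressed genes. No member and no other gene passed an adjusted p of 0.05, so that 0.00% of all genes were called higher and 0.00% lower, while 1330 genes had an unadjusted p under 0.05. Among the members these were AARS2, EARS2, IARS2, LARS2 and WARS2, and 0 of 17 cytosolic ones. EARS2 reached the expression limit only in control and with compound C alone, both without 2DG, and AARS2 only in control and 2DG. The values of these members are therefore partly fixed by that limit, that of EARS2 in the direction of 2DG. Without the pair of control and 2DG alone, 364 genes passed the adjusted p in limma, none of them a member. LARS2 had the lowest average, -1.04 ± 0.27 (SE), and WARS2 the highest, 0.71 ± 0.20, each with an adjusted p of 0.284 in limma. WARS1, SARS1 and AARS1 averaged -0.40 ± 0.55, -0.31 ± 0.52 and -0.71 ± 0.51, their effects being of both signs over the 4 pairs. The model leaves 3 residual degrees of freedom, and any difference of the 2DG effect between compounds enters its error.

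The mitochondrial members were spread more widely in 2DG with a compound than with single treatments, and so were all genes, whose quartiles were -0.24 and 0.30 in 2DG against control and -1.02 and 0.34 in 2DG plus compound C against 2DG. With compound C or versipelostatin alone none passed 2-fold, and with phenformin alone MARS2 (-1.17) did. In 2DG plus compound C, AARS2 (-2.12), MARS2 (-1.31) and HARS2 (-1.27) were lower by 2-fold or more than with 2DG only, 3 of 14 where 25.4% of all genes were. With versipelostatin these were LARS2 (-1.32) and AARS2 (-1.17), against 20.0%, and with phenformin LARS2 (-1.92), CARS2 (-1.39) and AARS2 (-1.22), against 21.8%. These counts were at or below the shares of all genes. No mitochondrial member was 2-fold higher in these 3 comparisons, although WARS2 came to 0.997 with phenformin, just under the limit. The mitochondrial medians were -0.53, -0.11 and -0.32. The cytosolic median minus the mitochondrial median, in which a shift of a whole array cancels, was 0.35 in 2DG and 0.14, 0.46 and 0.18 on the arrays of compound C, versipelostatin and phenformin, each against control. It was -0.01, -0.33 and -0.04 when compound C, versipelostatin and phenformin were added to 2DG. Pair by pair, the cytosolic member had the higher difference in 6, 12 and 8 of 14 pairs with these compounds alone. When they were added to 2DG the counts were 6, 3 and 5.

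LARS2, the mitochondrial leucyl enzyme, was at 7.45 in control, 7.54 with compound C, 6.78 with versipelostatin, 6.76 with phenformin and 7.12 in 2DG. With 2DG and the 3 compounds in the same order it was at 6.26, 5.80 and 5.19, the 3 lowest of its values. Its second probe set gave -0.47, -1.06 and -1.21 for these 3 arrays against 2DG, smaller than the -0.85, -1.32 and -1.92 of the main one. LARS1 changed by -0.44, -0.18 and -0.36 in the same comparisons.

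AARS2, the mitochondrial alanyl enzyme, was at 6.17 in control, 5.78 with compound C, 5.84 with versipelostatin, 5.89 with phenformin and 6.13 in 2DG. It was at 4.01, 4.97 and 4.92 in 2DG plus compound C, versipelostatin and phenformin. These 3 arrays lay below the other 5, as they did for AARS1, but AARS2 was not above control on any array. Centred on the median over expressed probe sets, its differences with versipelostatin and phenformin were -0.94 and -0.93 and so under the 2-fold limit. The probe set is dim, and reached a log2 value of 6 on 2 arrays only.

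MARS2 (methionyl) was at 6.18 in control, 5.85 with compound C, 5.78 with versipelostatin, 5.00 with phenformin and 5.74 in 2DG. The same compounds together with 2DG gave 4.42, 6.08 and 5.74. Only 2 of the 8 arrays thus reached 6, and the lowest was 2DG plus compound C. EARS2 (glutamyl) gave the lowest mitochondrial difference in 2DG, -0.52. It was at 6.11 in control, 6.08 with compound C, 5.76 with versipelostatin, 5.93 with phenformin, 5.59 in 2DG and 4.79, 5.34 and 5.23 in 2DG with the 3 compounds in the same order. All 4 arrays with 2DG lay below all 4 without it. EARS2 reached 6 only in control and with compound C alone, so part of this order and of its low difference is fixed by the expression limit.

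IARS2 (isoleucyl) was at 9.78 in control, 10.02 with compound C, 9.85 with versipelostatin, 9.84 with phenformin and 9.74 in 2DG, and at 9.03, 9.15 and 8.95 in 2DG with the 3 compounds. Its 4 arrays with 2DG were also the 4 lowest, but 2DG alone differed from control by -0.04. SARS2 (seryl) was at 6.52, 6.47, 6.57 and 7.09 in control and with compound C, versipelostatin and phenformin, and at 6.64, 6.79, 6.99 and 6.87 in 2DG and in 2DG with the same compounds. Its range of 0.63 contrasts with the 1.75 of SARS1. In 2DG against control SARS1 stood 1.43 above SARS2 in its difference, and with compound C alone 1.79.

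WARS2, the mitochondrial tryptophanyl enzyme, was above control on all 7 treated arrays, as EPRS1 and SARS1 were among the cytosolic members as deposited. EPRS1 was above it by only 0.007 in 2DG plus versipelostatin. The dimmer SARS1 probe set lay below control in 2DG plus compound C (-1.81) and in 2DG plus phenformin (-0.52). WARS2 was at 6.34 in control, 7.19 with compound C, 6.81 with versipelostatin, 7.01 with phenformin and 6.92 in 2DG. In 2DG plus compound C, versipelostatin and phenformin it was at 7.86, 7.49 and 7.92, or 2.85-fold, 2.21-fold and 2.97-fold above control. The control array was the lowest and these 3 were the highest. On the poly-A scale WARS2 still lay above control on all 7 arrays, by 0.22 to 0.90, whereas EPRS1 and SARS1 did so on 4 arrays each and were below control on the 3 of 2DG with a compound. Its second expressed probe set gave 0.25 in 2DG against control, and 0.80, 0.61 and 1.31 for the 3 compounds against 2DG, beside 0.94, 0.57 and 0.997 on the main one. WARS1 moved the other way on these arrays, so that the difference of WARS1 minus that of WARS2 was -2.43, -2.60 and -3.23.

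Over the 4 pairs without a shared array, WARS2 was higher with 2DG in all 4 pairs as deposited, by 0.58, 0.67, 0.68 and 0.91, but not on the poly-A scale. AARS2, EARS2, HARS2, IARS2, LARS2 and RARS2 were lower with 2DG in all 4 pairs. That is 6 of 14, or 42.9%, where 14.7% of all expressed genes were. AARS2 and EARS2 reached the expression limit only on 2 arrays where they were high, so part of this count is fixed by that limit. Among genes with a mean of at least 6 over the 8 arrays the count was 4 of 11, or 36.4%, against 13.9% of all. Centred on the median over expressed probe sets the count was 5 of 14, without HARS2, and all genes were at 10.96%. On the poly-A scale 11 of 14, or 78.6%, and 60.5% of all genes were lower in all 4 pairs. CARS2 (cysteinyl), with 7.57 in control, was lower with each single compound (7.04, 6.82 and 6.65) and higher in 2DG (7.83) and in 2DG plus compound C (7.95). In 2DG plus versipelostatin and phenformin it was at 7.005 and 6.44. The remaining FARS2 (phenylalanyl), NARS2 (asparaginyl), RARS2 (arginyl), VARS2 (valyl) and YARS2 (tyrosyl) had ranges from 0.45 for YARS2 to 1.203 for RARS2 over the 8 arrays.

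Of 12 members with more than 1 expressed probe set, most gave like differences on each. The median SD between the probe sets of a member was 0.07 in 2DG against control and 0.12 in 2DG plus compound C against 2DG, where the medians over 3492 genes were 0.16 and 0.31. SARS1 was the main exception. Its dimmer probe set was at 6.26 in control, 7.67 in 2DG and 4.45 in 2DG plus compound C, a difference of -3.22 against 2DG where the brighter one gave -0.54. The brighter probe set kept SARS1 1.01 above control in 2DG plus compound C, and the dimmer one placed it below control, so the direction of SARS1 on that array is uncertain. In 2DG plus phenformin they gave 0.32 and -0.52 against control, so its direction is uncertain there too. For CARS1, 2 of 3 dimmer probe sets gave 1.05 and 1.02 in 2DG, and the dimmest gave 0.01.

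**Figure D4:**
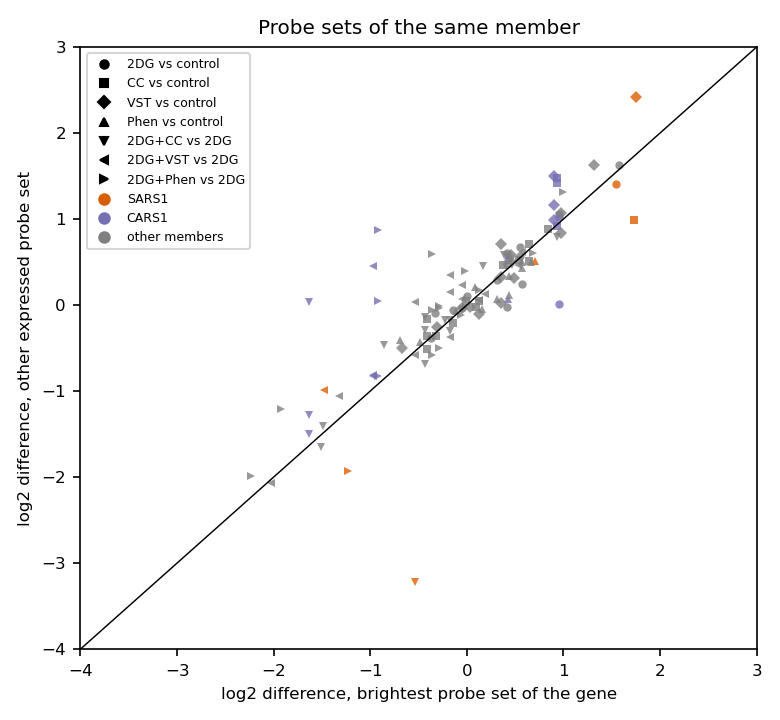
Log2 difference on the brightest probe set of a member (x axis) against that on each of its other expressed probe sets (y axis), for 12 members in 7 comparisons, with the line of equal values. Most points lie near the line. The SARS1 point at -0.54 and -3.22 (2DG plus compound C against 2DG) and several CARS1 points lie away from it.

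Genes that work with the synthetases were read from a list of 22, of which 15 were expressed. AIMP1, a scaffold protein of the multisynthetase complex, ranged from 10.10 in control to 10.52 in 2DG plus phenformin. XPOT, which exports transfer RNA from the nucleus, was 0.59 above control in 2DG, and its difference in 2DG plus compound C against 2DG was -1.37. QRSL1, GATB and GATC, the subunits of the mitochondrial enzyme that makes glutaminyl-tRNA, differed by 0.32, -0.18 and 0.45 in 2DG against control. Against 2DG, GATC differed by -1.42 when versipelostatin was added and by -1.74 with phenformin. MTFMT, which formylates mitochondrial initiator tRNA, differed from 2DG by -1.09 and -1.51 in 2DG plus compound C and in 2DG plus phenformin. Leaving out ATF4 and its targets, 0 of 9 expressed genes of the list were at least 2-fold higher or lower in 2DG against control, with a median of 0.32. When compound C, versipelostatin or phenformin was added to 2DG, 3, 1 and 2 of the 9 were lower, against 25.4%, 20.0% and 21.8% of all expressed genes.

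ATF4 and 5 genes known as its targets were read as a reference for the cytosolic members. The mRNA of ATF4 was 0.76 above control in 2DG and 0.68, 0.72 and 0.38 above it on the arrays of compound C, versipelostatin and phenformin. ASNS was 2.48, 2.50, 2.84 and 2.04 above control on the same arrays, and TRIB3, a pseudokinase, 2.11, 1.90, 2.30 and 0.79. Adding compound C, versipelostatin or phenformin to 2DG gave differences of -1.85, -2.37 and -2.08 for ASNS. DDIT3, which codes for the transcription factor CHOP, was 2.51 above control in 2DG, and its differences against 2DG were -2.07, -0.12 and 0.96 in that order. SESN2, a stress-induced leucine sensor, differed by 1.205, -0.95 and 0.71 in the same order. For TRIB3 the differences against 2DG were -1.41, -3.45 and -2.38, and for CHAC1, which codes for an enzyme that degrades glutathione, -0.87, -2.21 and -1.98. ASNS, TRIB3 and CHAC1 were thus at least 2-fold lower than with 2DG alone when versipelostatin or phenformin was added. DDIT3 and SESN2 were not. WARS1, SARS1 and AARS1 were also past that limit, as were 20.0% and 21.8% of all expressed genes. When each array was centred, AARS1 and SARS1 came to -0.99 and -0.94 with phenformin, under the limit. CHAC1 reached a log2 value of 6 only with compound C, versipelostatin or 2DG given singly, so part of its fall is fixed by the expression limit.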

How the data were processed

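RNA from HT1080 cells was labelled from 100 ng total RNA and hybridized to Affymetrix Human Genome U133 Plus 2.0 arrays, 1 array per condition. The authors deposited log2 intensities made with RMA, which corrects background, normalizes arrays by quantiles and summarizes the probes of a set; the version is not given in the sources used here. All 8 arrays were used. RMA brings arrays to one distribution, so a change in total RNA is not seen. Per the deposited file, 54675 probe sets were listed. The 62 control probe sets were left out. Symbols came from GEO's platform annotation, 41091 probe sets had 1 symbol, 1801 several and 11721 none, and genes were named from the first kind only.

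A gene was represented by its expressed probe set with the highest mean. Differences of log2 values were taken with pandas 2.3.3 and numpy 2.4.6 in Python 3.11.15, and figures drawn with matplotlib 3.10.9. With 1 array per condition no single comparison could be tested, and the number of arrays limits the precision. The average effect of 2DG was tested with limma 3.58.1 in R 4.3.3 (compound plus 2DG, 5 coefficients, Benjamini-Hochberg adjustment over all expressed genes), a fit added after seeing the data. The calculation was checked on simulated data. Values over 8 arrays are given for members at least 2-fold from their reference in 2DG, with a compound alone, or with 2 or more compounds in 2DG, for their mitochondrial counterparts, and for the mitochondrial members highest and lowest in 2DG; CARS1 and other members described outside this rule were chosen after their values were seen. The members, lists and motif were chosen with earlier results of these data known. Alternatives were the expression limit, the scaling, the choice of probe set, the fold limit and leaving out GARS1 and KARS1. Including the members whose probe sets carry a microRNA symbol, and the counts of direction under each scaling, were added after seeing the data. Promoter windows came from RefSeq.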

Additional observations from a re-analysis of the deposited data

Results flagged for a closer look

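For AARS1, SARS1 and WARS1 the effect of 2DG was at least 2-fold upward without a compound and at least 2-fold downward with one. How many of all expressed genes did both was not counted, so the number of such members is not read as a result. Without a compound 3.06% of them were at least 2-fold higher with 2DG. Under compound C, versipelostatin and phenformin 26.4%, 16.6% and 18.9% were at least 2-fold lower with 2DG. AARS1 was 1.04 above control in 2DG, and 2DG gave -1.98 under compound C and -1.47 under versipelostatin. SARS1 was 1.55 above control in 2DG, and 2DG gave -1.68 under versipelostatin. WARS1 was 1.58 above control, and 2DG gave -1.76 under versipelostatin and -1.12 under phenformin. Each is a single pair of arrays, and the difference between the pairs was not tested. Smaller values of opposite direction are counted with the 4 pairs of arrays. The compounds alone had already placed these members above control, by 0.68 to 1.75 in the cases of AARS1 and SARS1 named here and by 0.47 to 1.31 for WARS1. The poly-A controls read higher on the 3 arrays of 2DG with a compound (0.67 to 1.22 above control) than in 2DG alone (0.35), and their part in these values was not tested.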

How the results depend on the processing

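With 1 array per condition no array could be left out of a single comparison. No group has a second replicate, so the only paired analysis was that over the 4 pairs of arrays with and without 2DG. There the limma fit called 0 members under each scaling and without each pair in turn, and the genes called ran from 0 to 364, the latter without the pair of control and 2DG alone. Of the 176 values recomputed for the medians and counts, 154 stayed within the tolerance, the median SD between probe sets of a gene in that comparison or 1.5 times a count. The cytosolic minus mitochondrial median with phenformin alone, 0.18, turned to -0.15 without probe sets ending in _x_at or _s_at, and that with versipelostatin alone went from 0.46 to 0.22; 10 cytosolic members were left in this setting. In 2DG plus versipelostatin it went from -0.33 to -0.67 without these probe sets and -0.65 after quantile normalization, and with phenformin from -0.04 to -0.43 and -0.42. Under compound C, with the microRNA-annotated members added after seeing the data, the effect of 2DG went from 0.12 to 0.60. The causes were not tested.

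The 3 cytosolic members higher in 2DG became 5 at 1.5-fold and 0 at 3-fold. Shares of all genes at 1.5-fold and 3-fold are not given here. The 4 lower with compound C in 2DG became 7 and 2, and 14 after scaling to the poly-A controls. After that scaling 4578 of the 8429 expressed genes were lower. With versipelostatin 3 became 7 and 1, 5 after quantile normalization and 8 on the poly-A controls. All expressed genes that were lower then came to 1335 by quantiles and 2983 on the poly-A controls. With phenformin 3 became 6 and 1, 1 when each array was centred, and 5 both after quantile normalization and on the poly-A controls. Lower among all expressed genes were 1284 centred, 1380 by quantiles and 2644 on the poly-A controls. No value of a named member past 2-fold changed sign. The values that went under 2-fold were AARS1 in 2DG (0.69 on the poly-A controls), AARS1 and SARS1 with phenformin in 2DG (-0.99 and -0.94, centred), GARS1 with compound C (0.95 centred, 0.93 on the poly-A controls) and AARS2 with versipelostatin (-0.94 centred, -0.87 by quantiles) and phenformin (-0.93 and -0.85). Outside these comparisons signs did change on the poly-A scale. SARS1 in 2DG plus compound C against control went from 1.01 to -0.21. IARS1 in 2DG plus compound C against compound C went from 1.03 to -0.09. WARS2 in 2DG plus compound C against control kept its sign but went from 1.51 to 0.29. Low signal limits AARS2, EARS2 and MARS2, which reached a log2 value of 6 on 2 arrays only.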

Other observations

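Other probe sets of a member gave a difference at least 1 (log2) away from the main one in 4 of 119 values on expressed probe sets, of CARS1 and SARS1, and in 15 values on probe sets under the expression limit, of 6 members. Another WARS2 probe set that did not reach the expression limit gave 2.37 in 2DG plus versipelostatin against 2DG, beside 0.57 on the main one. The dimmest CARS1 probe set gave 0.87 in 2DG plus phenformin against 2DG, beside -0.92. In 2DG plus compound C against 2DG, a FARSB probe set under the limit gave -1.53 beside 0.19, one of TARS1 1.29 beside 0.05 and one of AARS2 -0.63 beside -2.12. Which transcripts these probe sets read was not analysed here.

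SESN2 and DDIT3, read as a reference, were on opposite sides of 2DG plus compound C. SESN2 was at 7.62 in 2DG and 8.82 in 2DG plus compound C, while DDIT3 was at 8.83 and 6.77. PSTK, which phosphorylates seryl-tRNA for selenocysteine, was 1.12 above control with phenformin alone, the only gene of the related list outside ATF4 and its targets to pass 2-fold with a single compound.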
